A study of Mus musculus with 6 samples.

Results

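The regions described here are the 704 of 13017 merged peak regions in which pSmad2 binding peaks were listed after DMSO and after SB but not after Activin treatment. They were chosen from the 3 deposited peak lists by position: each peak was given an interval on the mm9 assembly (833 bp centred on the listed position for Activin, 468 bp ending at it for DMSO and 1110 bp ending at it for SB), intervals that shared at least 1 bp were merged, and regions with a DMSO and an SB interval and no Activin interval were kept. The members took in 761 of the 7423 peaks listed for DMSO (10.3%) and 724 of the 4759 listed for SB (15.2%). Because the lists themselves made the choice, the ChIP levels of these regions are given as a description and not as a test.

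All 6 libraries came from the mouse embryonic stem (ES) cell line E14 TG2A, pretreated for 6 h with 10 uM SB and then kept for 18 h in medium with 20% KSR, a serum replacement, containing 25 ng/ml Activin (high signaling), DMSO at a dilution of 1/5000 (endogenous, medium signaling) or 10 uM SB (low signaling). The controls thus carried the SB pretreatment as well, and LIF was left out of the medium in all groups. Each treatment had 1 ChIP library, made with an antibody to Smad2 phosphorylated at its receptor sites, and 1 input library of unselected chromatin. There were no replicates, so every comparison below is between single libraries and covers counting error only. The ChIP libraries held 10537724 (Activin), 9713869 (DMSO) and 7805150 (SB) tags after keeping 1 tag per position and strand, and the inputs held between 9786787 and 11913742. Before that step 19.9% to 24.6% of ChIP tags and 5.64% to 6.94% of input tags repeated the position and strand of another tag.

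Nodal and Activin bind type I and type II receptors, which phosphorylate Smad2 and Smad3; with Smad4 these enter the nucleus and bind DNA weakly at the letters CAGA, usually beside partner factors such as Foxh1. SB blocks the kinase of the type I receptors, so pSmad2 is low in SB-treated cells. The Id genes, which code for inhibitors of basic helix-loop-helix factors, are classical targets of the related BMP pathway through Smad1 and Smad5.

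Sequences of 6 members are shown because the results below return to them: the member with the most SB tags outside regions of high input (Id4), a promoter with a high SB to DMSO ratio (Hmga1), a listed gene low in Activin tags (Nr0b1), a pluripotency and a BMP target gene (Nanog, Id1) and the member with the most DMSO tags outside regions of high input (Eef1a1). Each is the plus strand of mm9 over 200 bp around the highest summed pileup of the 3 ChIP libraries, 5′ to 3′, with CAGA and its complement TCTG in capitals.
Id4, chr13:48323149-48323348: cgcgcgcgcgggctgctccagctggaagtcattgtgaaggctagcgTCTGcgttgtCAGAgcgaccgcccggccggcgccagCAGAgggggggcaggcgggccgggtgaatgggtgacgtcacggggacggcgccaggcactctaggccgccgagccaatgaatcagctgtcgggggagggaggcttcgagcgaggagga
Hmga1, chr17:27693144-27693343: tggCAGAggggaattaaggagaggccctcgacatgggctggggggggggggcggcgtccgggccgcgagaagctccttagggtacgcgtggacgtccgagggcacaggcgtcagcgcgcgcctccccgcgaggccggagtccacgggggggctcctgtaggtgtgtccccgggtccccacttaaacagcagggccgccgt
Nr0b1, chrX:83438022-83438221: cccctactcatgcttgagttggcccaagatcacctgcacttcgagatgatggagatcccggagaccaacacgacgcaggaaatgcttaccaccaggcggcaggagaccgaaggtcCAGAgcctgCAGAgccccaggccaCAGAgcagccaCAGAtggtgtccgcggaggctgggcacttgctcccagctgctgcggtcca
Nanog, chr6:122658302-122658501: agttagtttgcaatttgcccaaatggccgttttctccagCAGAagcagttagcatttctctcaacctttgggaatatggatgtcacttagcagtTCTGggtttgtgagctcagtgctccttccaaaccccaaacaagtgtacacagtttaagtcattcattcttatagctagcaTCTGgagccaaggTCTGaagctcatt
Id1, chr2:152560822-152561021: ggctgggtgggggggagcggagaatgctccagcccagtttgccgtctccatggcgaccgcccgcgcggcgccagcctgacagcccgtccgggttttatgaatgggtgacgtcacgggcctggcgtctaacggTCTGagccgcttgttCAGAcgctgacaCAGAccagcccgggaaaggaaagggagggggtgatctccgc
Eef1a1, chr9:78325871-78326070: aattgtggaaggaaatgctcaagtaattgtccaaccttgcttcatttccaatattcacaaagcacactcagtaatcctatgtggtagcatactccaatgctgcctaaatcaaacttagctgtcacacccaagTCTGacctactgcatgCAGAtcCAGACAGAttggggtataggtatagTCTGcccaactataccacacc

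At the level of the whole set, Activin ChIP tags were present at the members but fewer than in the other treatments. The median member held 26 Activin, 34 DMSO and 32 SB ChIP tags, which is 2.47, 3.50 and 4.10 RPM (reads per 1000000 tags kept), against 1.38, 1.26 and 1.33 RPM in the Activin, DMSO and SB inputs. The quartiles of the members ran from 19 to 34 tags in Activin, from 28 to 43 in DMSO and from 25 to 41 in SB, so that the levels overlapped widely. Activin was the lowest ChIP library at 618 members (87.8%), compared with 46.2% of all merged regions. The most frequent order was Activin below DMSO below SB, at 440 members (62.5%), and Activin below SB below DMSO followed with 178 members (25.3%). The plot of tags by library shows these levels.

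**Figure D1:**
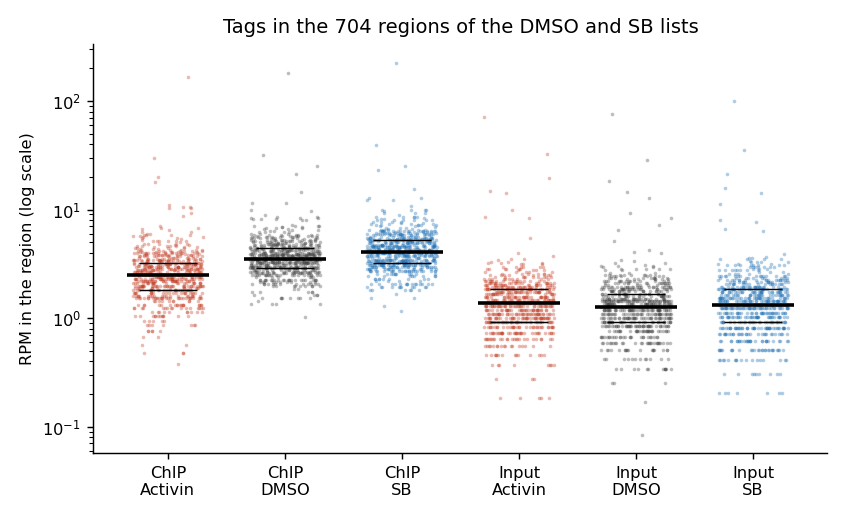
RPM (log scale, counts of 0 not drawn) in each of the 704 regions for the 3 ChIP and 3 input libraries, 1 point per region; thick bars are medians and thin bars quartiles. The ChIP medians are 2.47 in Activin, 3.50 in DMSO and 4.10 in SB, all above the input medians of 1.26 to 1.38.

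The median ratio of RPM was 0.705 for Activin to DMSO (quartiles 0.575 and 0.839), 0.609 for Activin to SB (quartiles 0.490 and 0.741) and 1.17 for SB to DMSO (quartiles 0.972 and 1.39). Over all merged regions the same medians were 0.808, 0.836 and 0.941. Region by region, the exact binomial test given the totals of both libraries, with Benjamini-Hochberg adjusted p-values over the 13017 regions, called 25 members lower in Activin than in DMSO (background 2.23% of all regions) and 0 higher (background 0.684%). Against SB, 160 members were lower in Activin (background 7.94%) and 0 were higher (background 3.30%). Both contrasts were used by the rule, and nothing is read from these counts. Between SB and DMSO, where both lists had to hold a peak, 12 members were higher in SB (background 2.59%) and 0 lower (background 1.94%). The 3 input libraries differed in 1 member in any pair (background 0.0922%).

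Against their own inputs, 265 members (37.6%) were above input in Activin (background 38.1% of all regions), 624 in DMSO (background 53.2%) and 634 in SB (background 38.5%), by the one-sided form of the test. The Activin background mixes unlike classes. It was 74.4% to 95.6% in the classes with an Activin peak. In regions of the DMSO list only (median width 468 bp) and of the SB list only it was 8.13% and 9.96%. Of the 704 members, 243 were above input in all 3 treatments (34.5%, compared with 14.5% of all regions; the lists that chose the members rest on the same ChIP tags, so nothing is read from this). The median ratio of ChIP to input ran from 1.79 for Activin over 2.74 for DMSO to 3.07 for SB. With each tag extended to 200 bp, 177 members (25.1%) reached a pileup of 13 tags, a minimum used in some of the study's summaries, in Activin, as did 384 (54.5%) in DMSO and 326 (46.3%) in SB. These pileups were not scaled to library size, and the SB library held the fewest ChIP tags. No share of all regions was counted for them, so nothing is read from these counts. In 236 members (33.5%, compared with 36.2% of all regions) Activin was above input and not called lower than in either other treatment.

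**Figure D2:**
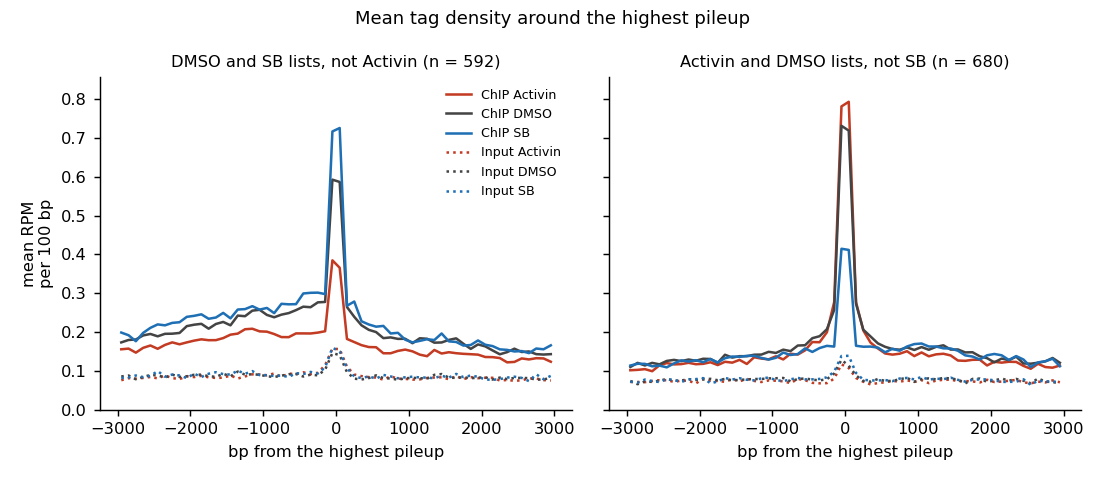
Mean RPM per 100 bp (vertical axis) against the distance in bp from the highest pileup (horizontal axis) for 592 members without high input and, on the right, 680 regions of the Activin and DMSO lists; solid lines are ChIP and dotted lines input libraries. At the members the SB library peaks at 0.726, DMSO at 0.593 and Activin at 0.385, while in the right panel Activin peaks at 0.793 and SB at 0.415; the centre was chosen for its height, so a peak there is given by construction.

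The density around the members was raised well beyond the interval itself. At 550 bp to the left of the highest pileup it was 0.197 (Activin), 0.257 (DMSO) and 0.272 (SB) RPM per 100 bp, and at 2950 bp to the left 0.156, 0.174 and 0.199, compared with 0.0761 to 0.0858 in the inputs there. To the right the density was lower: 0.161, 0.200 and 0.214 at 550 bp and 0.124, 0.143 and 0.166 at 2950 bp. For regions of the Activin and DMSO lists the values at 2950 bp were 0.102, 0.110 and 0.114 to the left and 0.114, 0.121 and 0.112 to the right. The inputs also rose at the centre of the members, to 0.157, 0.146 and 0.160 in the Activin, DMSO and SB inputs.

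How far a member lay from an Activin peak ran from 5 bp to 4058 kb, with a median of 5126 bp. In 191 members (27.1%) the nearest Activin interval was under 1 kb away, in 217 (30.8%) it was 1 to 10 kb away, in 175 (24.9%) 10 to 100 kb and in 121 (17.2%) more than 100 kb. Activin was above input in 57.1% of the first group and in 81, 42 and 33 members of the next groups, or 37.3% of the second and 27.3% of the farthest; the third group (42 of 175) had the smallest share. The median ratio of Activin to SB went from 0.675 in the nearest group over 0.633 and 0.564 to 0.529 in the farthest, and that of Activin to DMSO from 0.734 over 0.713 and 0.678 to 0.656. The quartiles of neighbouring groups overlapped (0.536 to 0.804 in the nearest and 0.413 to 0.714 in the farthest group for Activin to SB).

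**Figure D3:**
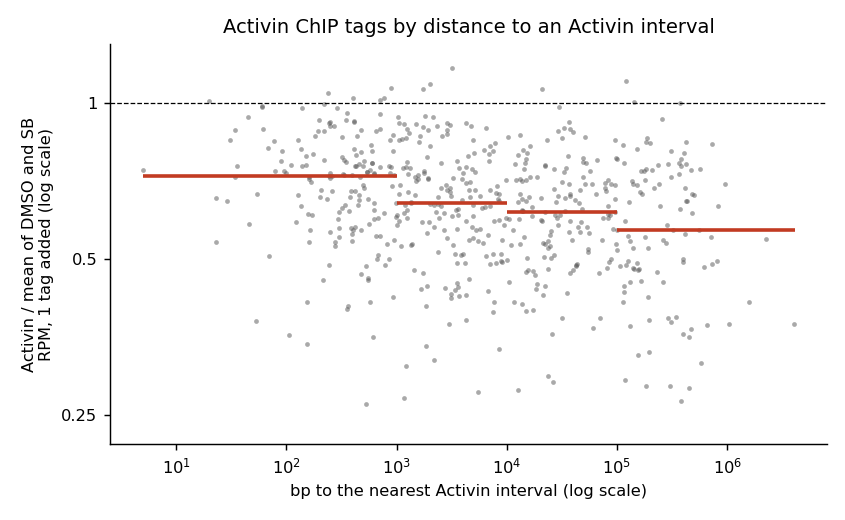
Activin RPM over the mean of DMSO and SB, 1 tag added to each count (log scale), against the distance in bp from the member to the nearest Activin interval (log scale); points are members without high input and red bars are medians of the distance groups 0 to 1, 1 to 10, 10 to 100 and over 100 kb. Most points lie under 1 in every group, and the bars step down with distance.

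The edge of the rule ran through similar regions. The 3 members nearest to an Activin interval were near Syt2 (5 bp away; 28 Activin, 35 DMSO and 28 SB tags), Ddx39b (20 bp; 38, 38 and 25 tags) and Ptbp1 (23 bp; 28, 43 and 29 tags). The 3 regions of all 3 lists that were joined by the shortest overlap were near Bahcc1 (6 bp; 36, 47 and 48 tags), 2310014L17Rik (7 bp; 93, 105 and 145 tags) and Gm10567 (16 bp; 63, 82 and 67 tags). A few base pairs thus separated members from non-members at this edge.

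Many listed peaks were also wider than the interval the rule gave them. Of the DMSO peaks in members 359 of 761 (47.2%), and of the SB peaks 286 of 724 (39.5%), had a listed tag number over 1.5 times the tags counted in their interval, and listed numbers ran from 8 to 9447 in DMSO and from 9 to 9556 in SB. When each interval was widened until it held its listed number of tags (at most 10 kb, an alternative chosen after seeing the data), 227 members (32.2%) became joined to an Activin interval and 477 did not. The joined members had medians of 34 Activin, 39 DMSO and 35 SB tags and were above input in Activin in 61.2%. The members not joined had medians of 23, 32 and 31 tags and were above input in Activin in 26.4%. This division is given beside the gene groups below.

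By position, the members lay near start sites of genes more often than all merged regions did. The highest pileup lay within 1 kb of the start site of a coding gene in 212 members, or 30.1% (95% Clopper-Pearson interval over regions 26.7% to 33.7%), of which 96 were upstream and 116 at or downstream of the site. The share was 30.9% (25.6% to 36.7%) in regions of the Activin and SB lists, 28.3% (25.5% to 31.3%) in regions of all 3 lists, 26.9% (25.3% to 28.7%) in regions of the SB list only, 17.2% (14.6% to 20.0%) in regions of the Activin and DMSO lists and 18.8% over all merged regions. Another 127 members (18.0%) lay in exons, 160 (22.7%) in introns, 100 (14.2%) within 2 kb past a gene end and 105 (14.9%) elsewhere. Only 33 members (4.69%) were more than 50 kb from a start site, compared with 18.3% of regions of the Activin and DMSO lists. The interval of the start-site share did not overlap that of the Activin and DMSO regions and did overlap those of the regions in all 3 lists, in the Activin and SB lists and in the SB list only. Of the members not joined to an Activin interval by widening, 34.6% were within 1 kb of a start site, as were 20.7% of the joined ones.

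**Figure D4:**
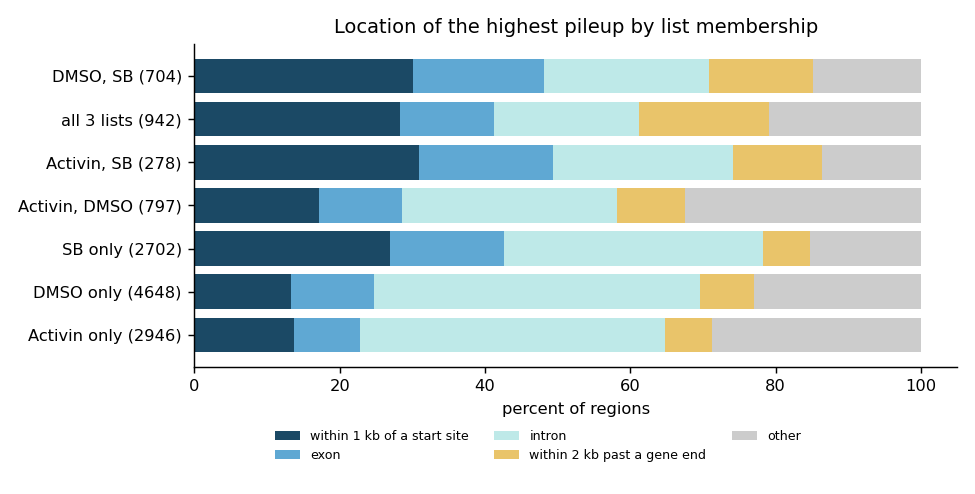
Percent of regions (horizontal axis) by the location of the highest pileup, for each combination of peak lists with the number of regions in brackets. The 704 members have 30.1% within 1 kb of a start site and 14.9% outside genes and their ends, and the 797 regions of the Activin and DMSO lists have 17.2% and 32.5%.

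The 500 bp around the highest pileup had a median GC content of 53.0% in the members (95% interval of the median 52.2% to 54.0%), compared with 52.6% (51.4% to 53.6%) in regions of the Activin and SB lists, 51.3% (50.8% to 51.8%) in those of the SB list only, 50.9% (50.2% to 51.6%) in those of all 3 lists, 49.2% (48.4% to 49.8%) in those of the Activin and DMSO lists and 48.6% over all regions. A ratio of observed to expected CpG over 0.6, as in CpG islands, was found in 197 members (28.0%), in 29.1% of regions of all 3 lists, in 25.9% of the Activin and SB regions, in 22.2% of the SB-only regions and in 12.0% of the Activin and DMSO regions.

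GC content moved with the ratio of the libraries, also outside every listed region. In windows outside the regions the SB to DMSO ratio was 0.939 at 40% GC, 1.56 at 65% and 1.80 at 70%. The Activin to DMSO ratio of the windows was 1.00 at 40% GC, 0.863 at 65% and 0.691 at 70%, and the Activin to SB ratio was 1.07, 0.555 and 0.383.

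Members and windows were set side by side by the GC content of the whole region. The median SB to DMSO ratio of the members was 1.02 under 45% GC, where the windows gave 0.978, and 1.46 at 65% GC or more, where the windows gave 1.56. For Activin to DMSO the members lay between 0.553 and 0.753 in the 6 GC groups and the windows between 0.863 and 1.03. For Activin to SB the windows fell from 1.03 in the lowest group to 0.555 in the highest and the members from 0.675 to 0.373. In the lowest group 117 of 123 members were under the windows in Activin to SB, and in the highest 27 of 32. The rule asked for no Activin peak at the members, and no share of all regions was counted by GC group. Nothing is therefore read from the Activin ratios lying under the windows. Grouped instead by the 500 bp around the pileup, the 62 members of 65% GC or more had a median SB to DMSO ratio of 1.42 (windows 1.56), Activin to DMSO of 0.602 (windows 0.863) and Activin to SB of 0.401 (windows 0.555). Scaled by windows of like GC content, taken over the whole region, the median SB to DMSO ratio was 1.01, 40 members were lower in Activin than in SB and 3 were higher in SB than in DMSO. No share of all regions was counted under this scaling, so nothing is read from these counts.

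**Figure D5:**
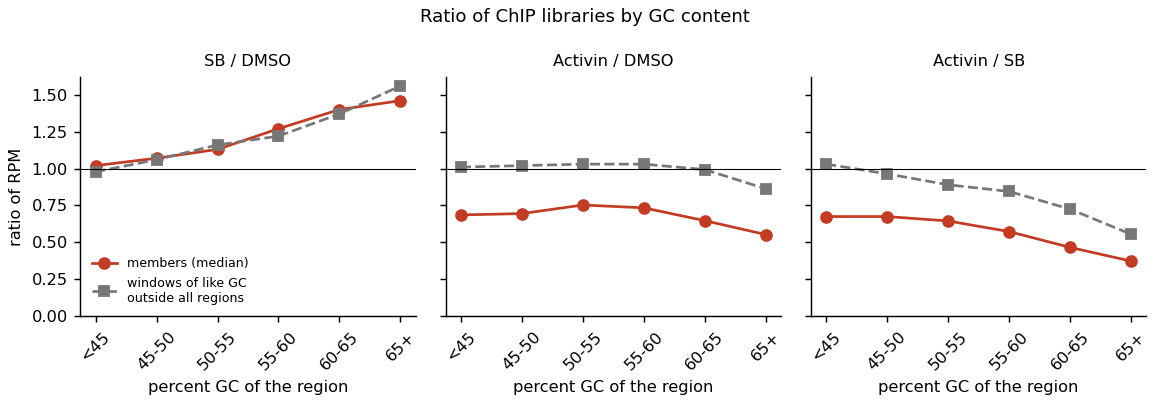
Ratio of RPM between ChIP libraries (vertical axis) by percent GC of the whole region (horizontal axis); red circles are medians of the members and grey squares the ratio in windows of like GC outside all regions. In the SB to DMSO panel both lines rise, from 1.02 and 0.978 to 1.46 and 1.56. In the 2 Activin panels the medians of the members lie below the windows in all 6 GC groups. The members were chosen for having no Activin peak, so this is a description and not a test.

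Letters bound by Smads and their partners were searched in 200 bp around the highest pileup on both strands. CAGA was present in 91.9% of members and 92.8% of all merged regions, and CAGAC, which contains it, in 44.5% (40.7% to 48.2%) of members, 45.1% of all regions, in 44.4% of the regions of all 3 lists and in 55.1% (51.6% to 58.6%) of those of the Activin and DMSO lists. The Foxh1 letters AATCCACA were found in 5 members (0.710%), in 1.84% of all regions, in 1.17% of those of all 3 lists and in 67 of the 797 Activin and DMSO regions (8.41%). The palindrome GTCTAGAC occurred in 3 members (0.426%), in 0.531% of the regions of all 3 lists and in 17 Activin and DMSO regions (2.13%). The octamer ATGCAAAT, bound by Oct4, occurred in 0.710% of members, 0.955% of the regions of all 3 lists and 2.51% of the Activin and DMSO regions. The GC box GGGCGG was found in 108 members (15.3%, 12.8% to 18.2%), of which 64 were within 1 kb of a start site, in 12.7% (10.7% to 15.0%) of the regions of all 3 lists, in 9.54% of the Activin and DMSO regions and in 8.84% of all regions. CCATNTT, bound by Yy1, was found in 14.3% of members and 11.5% of all regions. A match is a description of the letters in the window only.

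Among the 10 members with the most DMSO and SB tags, leaving out regions with high input, 4 lay within 2 kb past a gene end and 1 near a start site. The first, past a gene end at Eef1a1 (chr9:78325207-78326316), the gene of a translation elongation factor, held 109 Activin, 142 DMSO and 84 SB tags against 16, 23 and 17 input tags. Near Hspa1b, the gene of a heat shock protein, the member (chr17:35088462-35089571) held 98, 83 and 99 tags. At these members Activin was 7.04 and 7.79 times its input.

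Near Rpl8 and Ftl1, genes of a ribosomal protein and of ferritin light chain, the members lay past a gene end and held 69, 81 and 77 tags and 56, 60 and 67 tags in Activin, DMSO and SB. The Ftl1 member lay 1189 bp upstream of the Ftl1 start site, so that the gene end was that of another gene. At Txnip, the gene of a thioredoxin-binding protein, the counts were 59, 82 and 56, and at Rpl13 they were 68, 79 and 53. The member near Gm16519 held 60, 80 and 64 tags. The members named so far in these 2 paragraphs were all joined to an Activin interval by widening, and the nearest Activin interval was 136 bp (Eef1a1) to 1923 bp (Txnip) away. Rprd2, whose product binds RNA polymerase II, had a member 775 bp upstream of its start site with 41, 66 and 67 tags, 8787 bp from an Activin interval (Activin to SB 0.453, 0.300 to 0.678).

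Id4 stood apart in this group. Its member (chr13:48322471-48323580) lay 33547 bp upstream of the Id4 start site, on the long noncoding RNA gene A330033J07Rik and 305124 bp from any Activin interval. It held 24 Activin, 35 DMSO and 100 SB tags against 8, 6 and 18 input tags, or 2.28, 3.60 and 12.8 RPM in the ChIP libraries. The SB to DMSO ratio was 3.56 (95% exact interval 2.40 to 5.39), the largest among members with at least 20 DMSO and SB tags and no high input, and the Activin to SB ratio was 0.178 (0.109 to 0.280). The GC content was 67.8%.

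Id1 also had a member, 1065 bp upstream of its start site (chr2:152560206-152561315), with 22 Activin, 20 DMSO and 32 SB tags against 12 tags in each input. Its SB to DMSO ratio was 1.99 (1.10 to 3.67), or 1.70 when scaled by windows of like GC content, and it was not called higher in SB. By the test against input it was above input in SB and not in Activin or DMSO. In the sequences above, the windows of Id1 and Id4 shared a run of 20 bases, tgaatgggTGACGTCAcggg, whose capitals mark the letters of a cAMP response element (TGACGTCA). These letters were present in 6 members (0.852%, 0.313% to 1.85%) and in 0.238% of all merged regions, and the other 4 members were near Sfpq, Rad51c, E130012A19Rik and Phf8. They were also present in 4 regions of the Activin and DMSO lists (0.502%, 0.137% to 1.28%) and in 3 of all 3 lists (0.318%, 0.0657% to 0.928%). The intervals of these classes overlapped that of the members. This comparison of 2 windows was made after their sequences were seen.

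Among the other members with a high SB to DMSO ratio, Hmga1, the gene of an architectural chromatin protein, had a member 321 bp upstream of its start site with 18 Activin, 22 DMSO and 47 SB tags (SB to DMSO 2.66, 1.57 to 4.63; GC 67.8%). Snx22, a sorting nexin gene, held 23, 21 and 39 tags (2.31, 1.33 to 4.14), and Oaz1, the gene of ornithine decarboxylase antizyme, 42, 28 and 50 tags (2.22, 1.37 to 3.67). The member at 36293 bp from the Ctbp2 start site held 26, 16 and 30 tags (2.33, 1.23 to 4.58). These members were chosen by this ratio, which is given without a test. Scaled by windows of like GC content the ratio was 2.75 at Id4, 1.54 at Hmga1, 1.87 at Snx22, 1.90 at Oaz1 and 2.17 at Ctbp2.

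At the low end of the SB to DMSO ratio were members near Zfp62 (23 Activin, 38 DMSO and 12 SB tags; ratio 0.393, 0.187 to 0.768), Trp63 (24, 40 and 15 tags; 0.467), 3830408C21Rik (24, 55 and 23 tags; 0.520), Rpl23a (33, 58 and 25 tags; 0.536) and Mcl1, the gene of an inhibitor of apoptosis (54, 80 and 35 tags; 0.544). They were chosen by this ratio. In them the DMSO library was the highest of the 3, and the GC content was 37.2% to 47.4%.

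The members with the smallest share of Activin tags were chosen by that value, which is therefore given without a test. Hist1h2bm, a histone gene, held 6 Activin, 27 DMSO and 16 SB tags 832 bp upstream of its start site. D17H6S56E-5 held 8, 33 and 21 tags, 9930021J03Rik held 12, 33 and 41, and Pdk1, the gene of a kinase that inhibits pyruvate dehydrogenase, held 6, 24 and 16. In these 4 members Activin was 0.564 to 1.65 times its input. Fgfbp3 (8, 30 and 21 tags), Rbmxl2 (9, 29 and 26 tags) and Grlf1 (14, 35 and 46 tags) had their members within 1 kb of the start site at 60.0% to 66.2% GC, and Id4 belonged to this group too. Over its whole region the Rbmxl2 member had 73.3% GC. Its Activin to SB ratio was 0.256, but 0.870 when scaled by windows of like GC content. At Fgfbp3 this ratio went from 0.282 to 0.404 with the scaling, and at Grlf1 from 0.225 to 0.318.

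Timd2 and Slc22a29, the last of the group, depended on how repeated tags were counted. Timd2 held 4 Activin, 15 DMSO and 14 SB tags with 1 tag per position and strand, but 4, 64 and 306 with all deposited tags, and was not above input in any treatment. Slc22a29 held 9, 22 and 33 tags, but 12, 38 and 321 with all tags. At Id4 the counts with all tags were 29, 37 and 135.

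In all, 705 of 22202 coding genes (3.18%) had a start site within 10 kb of a member's highest pileup. Of the 12 ligands and extracellular regulators only Gdf1, a ligand related to Nodal, was among them, and its member (33 Activin, 28 DMSO and 23 SB tags) lay in the neighbouring gene Upf1. In SB this member was not above its input, which held 18 tags. None of 10 receptors and Smads and 9 feedback inhibitors and corepressors had a member within 10 kb. Nor did any of 15 mesendoderm, 12 trophectoderm, 13 FGF and 16 Wnt genes. Within 50 kb, 2 mesendoderm, 1 trophectoderm, 1 FGF and 1 Wnt gene had a member, and still none of the receptor and feedback lists. The upper limits of the intervals within 10 kb ran from 20.6% (Wnt) to 33.6% (feedback inhibitors and corepressors). All were above the 3.18% of all coding genes, so these short lists cannot show a lack of members. Of the 9 feedback inhibitors and corepressors 4 had a region of the Activin and DMSO lists and 4 a region of all 3 lists. In the BMP list 1 of 16 genes (Id1) had a member within 10 kb and 2 within 50 kb. Of 98 genes of the study's expression table, 4 (4.08%) had a member (Fn1, Nme4, Id1 and Epha2). Regions of the Activin and DMSO lists lay near 15 of them (15.3%). The study chose these genes on expression after these treatments and on a pSmad2 peak within 50 kb in the same ChIP data. A nearby region was thus partly given by construction, and nothing is read from these shares.

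Pluripotency genes had members in 5 of 19 cases, namely Klf2, Nanog, Nr0b1, Tbx3 and Zfp42, and 7 of the 19 had a region of the Activin and DMSO lists. Nanog, a core pluripotency factor, had a member 791 bp downstream of its start site (chr6:122657608-122658802) with 33 Activin, 48 DMSO and 32 SB tags against 15, 30 and 19 input tags. It lay 2633 bp from an Activin interval, and its input density was 5.39 times the genome-wide value. Zfp42 (Rex1), a marker of naive ES cells, had 3 members within 10 kb: 33, 37 and 35 tags 348 bp upstream of the start site, and 29, 43 and 31 and then 24, 35 and 35 tags further into the gene.

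Nr0b1 (Dax1), a repressor expressed in ES cells, had the smallest Activin to SB ratio of these genes. Its member (chrX:83437234-83438343) held 11 Activin, 28 DMSO and 23 SB tags against 11, 9 and 12 input tags, 1044967 bp from any Activin interval. Activin was at 1.03 times its input, and the Activin to SB ratio was 0.354 (0.156 to 0.756). Tbx3, a T-box factor, held 22, 28 and 33 tags, and Klf2, a Kruppel-like factor, 35, 39 and 37 tags only 152 bp from an Activin interval. The Klf2 member was joined to that interval by widening, while those of Nanog, Nr0b1 and Tbx3 were not.

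Cell cycle genes had members in 5 of 32 cases: Ccnb1, Cdk4, Cdkn1a, Mcm7 and Pcna. Regions of all 3 lists also lay near 5 of the 32, and regions of the Activin and DMSO lists near 3. Cdkn1a (p21), an inhibitor of cyclin-dependent kinases, had 2 of them, with 33 Activin, 42 DMSO and 40 SB tags and with 23, 48 and 33 tags, 37543 and 42700 bp from an Activin interval. At the second, the Activin to DMSO ratio was 0.442 (0.256 to 0.740). Pcna, the sliding clamp of DNA replication, held 35, 36 and 40 tags, Ccnb1 (cyclin B1) 16, 28 and 26, Mcm7, a part of the replicative helicase, 36, 38 and 31, and the member by Cdk4, which lay in Tspan31, 39, 40 and 36. The Activin, DMSO and SB inputs held 21, 18 and 21 tags at Mcm7 and 20, 34 and 11 at the Cdk4 member. By the test against input, Mcm7 was above input only in DMSO, and the Cdk4 member in Activin and SB but not in DMSO. Among 21 genes of DNA and histone methylation, Uhrf1, needed to maintain DNA methylation, held 21, 41 and 38 tags and Ehmt2 (G9a), a histone H3 methyltransferase, 30, 36 and 26. Of these 21 genes 4 had a region of all 3 lists and 3 a region of the Activin and DMSO lists. The Activin to SB ratio at Uhrf1 was 0.409 (0.228 to 0.715), and 0.570 when scaled by windows of like GC content.

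Members lay within 10 kb of 7 of 23 translation factor genes (30.4%), beside 3.18% of all coding genes. They lay near 42 of 150 genes named Rpl or Rps, as cytoplasmic ribosomal proteins are (28.0%, 21.0% to 35.9%). Of 77 genes named Mrpl or Mrps, as mitochondrial ones are, only 4 had a member (5.19%). Both lists were taken by the start of the gene name, so they can hold genes of other proteins. The regions of all 3 lists lay near 10 of the 23 and 57 of the 150 (38.0%), and those of the Activin and DMSO lists near 1 of 23 and 23 of 150 (15.3%). The 45 members near genes named Rpl or Rps had medians of 33 Activin, 41 DMSO and 37 SB tags against 17, 16 and 14 input tags. Activin was above input in 29 of the 45, and 9 were called lower in Activin than in SB. The shares of all members were 37.6% and 22.7%, and those of all regions 38.1% and 7.94%. Of the 45, 34 were joined to an Activin interval by widening, which left 11 of 150 genes (7.33%) with a member; likewise 4 of 23 translation factor genes (17.4%) and, for the pluripotency genes above, 4 of 19 (21.1%) were left, beside 2.19% of all coding genes. Reads of ribosomal protein genes can be shared with near-identical processed copies elsewhere. Whether this touched the counts of these members was not tested.

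Among the translation factors, the start sites of Eif4g2, Eif3a and Eif2s2 carried members that were low in Activin. Eif4g2 held 19 Activin, 44 DMSO and 42 SB tags (Activin to SB 0.335, 0.184 to 0.589), Eif3a 16, 32 and 38 tags (0.312, 0.162 to 0.573) and Eif2s2 21, 38 and 36 tags (0.432, 0.240 to 0.760). These 3 were not joined to an Activin interval. Scaled by windows of like GC content, their Activin to SB ratios were 0.519 (Eif4g2), 0.376 (Eif3a) and 0.469 (Eif2s2). Eif4a2 (35, 45 and 31 tags), Eef1g (15, 25 and 22 tags) and Eif5 (18, 22 and 15 tags) had members in the gene, between 23 and 503 bp from an Activin interval. GC content was 59.6% to 66.8% in the first 3 and 36.0% to 43.2% in the latter 3.

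Histone genes had a member in 7 of 67 cases (10.4%), while 58 of the 67 had a region of all 3 lists. Zinc finger genes named Zfp had one in 13 of 370 cases (3.51%), close to the share of all coding genes. The 39 Hox genes had none, with an interval up to 9.03%, which includes the 3.18% of all coding genes. The genes of the study's table were represented by Fn1 (fibronectin) with 24 Activin, 21 DMSO and 29 SB tags at its start site, Epha2, a receptor tyrosine kinase, with 37, 47 and 24, and Nme4, whose member lay at the neighbouring Decr2 start site, with 39, 46 and 41. Fn1 was not above input in Activin (21 input tags), and Epha2 was not above input in SB (18 input tags).

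Some genes carried several members. Of 626 nearest genes 63 had more than 1 member, with 6 at Phf17, 5 at Ier2 and 4 each at Zfp42 and Upp1. At Phf17, the gene of a chromatin protein of histone acetyltransferase complexes, they were spread between 100690 bp before and 32301 bp after the start site, with 14 to 40 Activin, 29 to 53 DMSO and 18 to 50 SB tags. At Ier2, an immediate early gene, all 5 lay within 10 kb of it and held 31 to 47, 27 to 46 and 26 to 41 tags. Members of 1 gene share a locus and are not independent of each other.

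In 112 members (15.9%) an input library exceeded 5 times its genome-wide density, compared with 14.5% of all regions, and these were kept out of the ranked groups above. The most extreme, on chromosome 17 at 39984830 (annotated as the pseudogene AY036118), held 1743 Activin, 1756 DMSO and 1764 SB tags against 781, 907 and 983 input tags, with 231 times the genome-wide density in an input. Near Gm10715 on chromosome 9 the member held 314, 312 and 308 ChIP tags against 353, 343 and 345 input tags, and in Cdk5rap2 208, 205 and 197 against 211, 217 and 208. In the latter 2 the counts of ChIP and input tags were level in all treatments. Keeping 1 tag per position and strand limits how many tags a region can hold. Whether this limit set the counts at these regions was not tested. Of the 112, 45 lay within 1 kb of a start site.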

How the data were processed

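The deposited files were 6 lists of aligned tags (mm9, per the labels) and 3 peak lists, in which each MACS peak has a position and the authors' count of its tags. The alignment settings are not given in the sources used. The NCBIM37 sequence, which is the same build, and the GENCODE M1 annotation were used; 22202 coding genes had 45993 start sites.

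The members and the gene and motif lists were chosen with earlier results of these data known. From the deposited tags, 1 was kept per position and strand, moved to the middle of a 200 bp fragment and counted per region; library sizes were the tags kept. Libraries were compared per region by two-sided exact binomial tests (ChIP against input one-sided) with Benjamini-Hochberg adjustment over all 13017 regions at 0.05. For median ratios, 0.5 tags were added to both counts of a region. Intervals are 95% Clopper-Pearson intervals and cover counting error only. The test was checked on simulated data. High input means over 5 times the genome-wide density.

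Named members were, by the nearest coding start site, the 10 with the most DMSO and SB RPM, the 10 with the smallest Activin share and the 5 highest and 5 lowest SB to DMSO ratios (the last 3 groups among members with at least 20 DMSO and SB tags, 1 tag added), every member within 10 kb of a listed gene, and the 3 nearest to the edge of the rule. Genes with several members, those with high input and the TGACGTCA members were named after their values were seen. Results at some regions are not reported here. Alternatives covered intervals, repeated tags, scaling, fragment length, thresholds and windows. Python 3 with numpy, scipy and pandas was used.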

Additional observations from a re-analysis of the deposited data

How the results depend on the processing

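The number of members stayed within 1.5 times of 704 in every alternative of the intervals, and Activin stayed the lower library in all median ratios. Calls depended on depth and on repeated tags. No share of all regions was counted under the alternative settings, so the counts of calls below describe the members only. With all deposited tags, 131 members were lower in Activin than in DMSO, 2 higher, 1 higher in Activin than in SB, 60 higher and 9 lower in SB than in DMSO, and 2 differed between inputs. At a threshold of 0.001 these became 0 lower in Activin than in DMSO, 21 lower than in SB, 3 higher in SB than in DMSO, and 52, 260 and 296 above input in Activin, DMSO and SB.

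Scaling by windows of like GC content (over the whole region) left 40 members lower in Activin than in SB (median ratio 0.690), 3 higher and 1 lower in SB than in DMSO (median ratio 1.01) and 0 called between inputs. Without high-input regions 6 were higher in SB than in DMSO and 0 differed between inputs. Merging only intervals that shared at least 50% of the shorter gave 1 member higher in Activin than in SB, 1 lower in SB than in DMSO and 3 called between inputs. With peaks of at least 13 listed tags 15 members were lower in Activin than in DMSO and 1 lower in SB than in DMSO. Intervals of 1000 bp gave 1 member lower in SB than in DMSO and median ratios of 0.684 (Activin to DMSO) and 1.12 (SB to DMSO).

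Without members within 1 kb of an Activin interval, 156 were above input in Activin, the Activin to SB median was 0.587 and 33.9% were near a start site. In this setting 28 genes named Rpl, Rps, Mrpl or Mrps had a member, compared with 46 of 227. The next 2 alternatives were added after seeing the data. Intervals widened to their listed tags gave 39 members lower in Activin than in DMSO, 24 higher in SB than in DMSO, 0 called between inputs, 34.5% near a start site, 54.5% GC and 16 genes named Rpl, Rps, Mrpl or Mrps. Members over 10 kb from an Activin interval gave 11, 81 and 6 calls (Activin lower than DMSO, than SB, SB higher than DMSO), 0 between inputs, 75, 248 and 263 above input in Activin, DMSO and SB, and medians of 0.672, 0.553 and 1.19 for Activin to DMSO, Activin to SB and SB to DMSO; here fewer members were counted by construction.

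By window, 21.9% of members were within 500 bp of a start site, 39.4% within 2 kb and 35.5% overlapped 1 kb around one. Whole regions had 51.9% GC, CAGAC was present in 73.9% within 500 bp, and 1967 coding genes had a member within 50 kb. The cause of these shifts was not tested beyond what each alternative changes.

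No paired analysis was possible because each treatment has 1 library of each kind. With about 30 ChIP tags in the median member, small differences between treatments could not be detected at this depth.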
